A study of Homo sapiens with 28 samples.

Results

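Collagens are the main structural proteins of the extracellular matrix, and the 44 genes described here encode the chains of types I to XXVIII. They were taken by symbol from the 62703 gene rows of the deposited count tables, and all 44 had a row in both tables. Values come from 24 RNA-seq libraries of human colorectal cancer cell lines, 3 in each of 8 groups, and from 1 TWIST1 ChIP-seq peak list for each line. The study asked which genes depend on TWIST1, a basic helix-loop-helix (bHLH) transcription factor known for its part in epithelial-mesenchymal transition. MDST8, a line of the mesenchymal consensus molecular subtype CMS4, was wild type (WT) or carried a TWIST1 knockout made with Cas9 and 1 of 3 guides, in the clones TG1_1, TG2_2, TG3_2, TG3_5 and TG3_6. Each clone was grown from a sorted single cell, so that a clone is 1 line and its 3 libraries are not separate editing events, and TG3_2, TG3_5 and TG3_6 carry the same guide label. LoVo, a non-CMS4 line, was transduced with lentiviral particles and is labelled shRNA control (genotype wild type) or TWIST1 shRNA (genotype TWIST1 knockdown). ChIP was done in wild type cells. Both lines were grown in DMEM with serum, and no treatment other than the edit or the shRNA is given.

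Collagen chains assemble in the endoplasmic reticulum into helical trimers, which may hold identical or different chains. Type I fibrils, the main collagen of the stroma, are usually built from COL1A1 and COL1A2 chains, and type V chains nucleate such fibrils. Type IV forms the network of basement membranes, in which COL4A1 pairs with COL4A2, COL4A3 with COL4A4 and COL4A5, and COL4A5 also with COL4A6. Type VI forms beaded filaments of COL6A1, COL6A2 and a further chain, usually COL6A3. In colon tumors most fibrillar collagen is made by fibroblasts, but carcinoma cells with mesenchymal features can transcribe collagen genes themselves.

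Total counts ranged from 16567606 to 22217009 per library. The clones kept TWIST1 mRNA, with 553 to 1195 counts per library against 797 to 1034 in WT, and a count of the mRNA does not check an edit in the coding sequence. TWIST1 went against the LoVo labels, with 73, 89 and 93 counts where the label is TWIST1 shRNA and 0 in each control library, and every LoVo direction below follows the labels. The study assessed the LoVo knockdown by qRT-PCR and western blot and gives a migration assay of these cells, none of which was analysed here. The LoVo groups also differed in the share of mitochondrial counts, 3.49 to 3.96% under the control label and 5.47 to 10.9% under the TWIST1 label, where replicate 1 had the highest share. Colon epithelial markers summed to between 8281 and 8570 CPM in the control libraries and between 4136 and 4603 CPM in the others, with 12 of 12 markers detected in both LoVo groups. In MDST8 these markers summed to between 64.3 and 134 CPM, with 2 or 3 of 12 detected in each group, and GPA33 and CDX1 had no counts in any of its groups. Of 10 fibroblast markers, 6 or 7 were detected in each MDST8 group, with PDPN and THY1 among them, and they summed to between 287 and 302 CPM in WT and between 321 and 528 CPM in the clones. By the limits for calls given below, 2 of the 7 tested were higher and 1 lower in the mean of the clones (10.2% and 6.03% of all genes). In TG3_6, with the highest sum, 3 were higher and 3 lower (15.3% and 11.7%). Of the fibroblast markers, 2 to 3 were detected in LoVo, where DCN, FAP, PDPN and POSTN had no counts in either group, and they summed to between 43.1 and 44.1 CPM under the control label and between 150.4 and 160.3 CPM under the other. Yet of the 3 tested there, 1 was called higher and 2 lower under the TWIST1 label (26.6% and 26.1% of all genes). Mesenchymal markers, 6 of 7 detected in each MDST8 group, summed to between 8883 and 9562 CPM in WT and between 9030.0 CPM, in TG3_6, and 16170.0 CPM, in TG3_5, in the clones, and in LoVo to between 198 and 207 CPM under the control label and between 61.4 and 68.5 CPM under the other. Of the 6 tested in MDST8, 0 were called in the mean of the clones (10.2% and 6.03% of all genes). By clone, 1 was called higher in TG2_2 (8.05%), in TG3_2 (10.9%) and in TG3_5 (11.2%), and 1 lower in TG3_6 (11.7%). Of the 4 tested in LoVo, 0 were called higher and 3 lower under the TWIST1 label (26.6% and 26.1%). No endothelial marker and at most 1 of 6 leukocyte markers reached a mean of 1 CPM in any group. The part of these differences in the collagen values was not tested.

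Levels are given as counts per 1000000 (CPM), scaled by edgeR's TMM factors over all 24 libraries, and a gene was taken as detected in a group at a mean of at least 1 CPM. Of the 44 collagen genes, 28 were detected in at least 1 group, 11 in all 8 groups and 16 in none. WT MDST8 had 21 detected collagen genes, the clones had 19 (TG1_1) to 22 (TG3_2 and TG3_6), and LoVo had 18 under the control label and 19 under the TWIST1 label. The lines differed more in level than in number, since 8 genes reached 100 CPM in WT MDST8 and 2 did so in the LoVo control libraries. The 16 genes below 1 CPM in every group were COL1A2, COL2A1, COL3A1, COL11A1, COL24A1, COL6A5, COL6A6, COL26A1, COL28A1, COL9A1, COL14A1, COL19A1, COL20A1, COL21A1, COL23A1 and COL25A1. Their highest group mean was 0.873 CPM, for COL3A1 in the LoVo control libraries, and COL9A1 had no count in any library. COL5A3, COL4A1, COL8A1, COL10A1 and COL22A1 were detected in MDST8 groups alone, and COL4A3, COL4A4, COL8A2, COL9A2 and COL15A1 in LoVo groups alone.

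**Figure D1:**
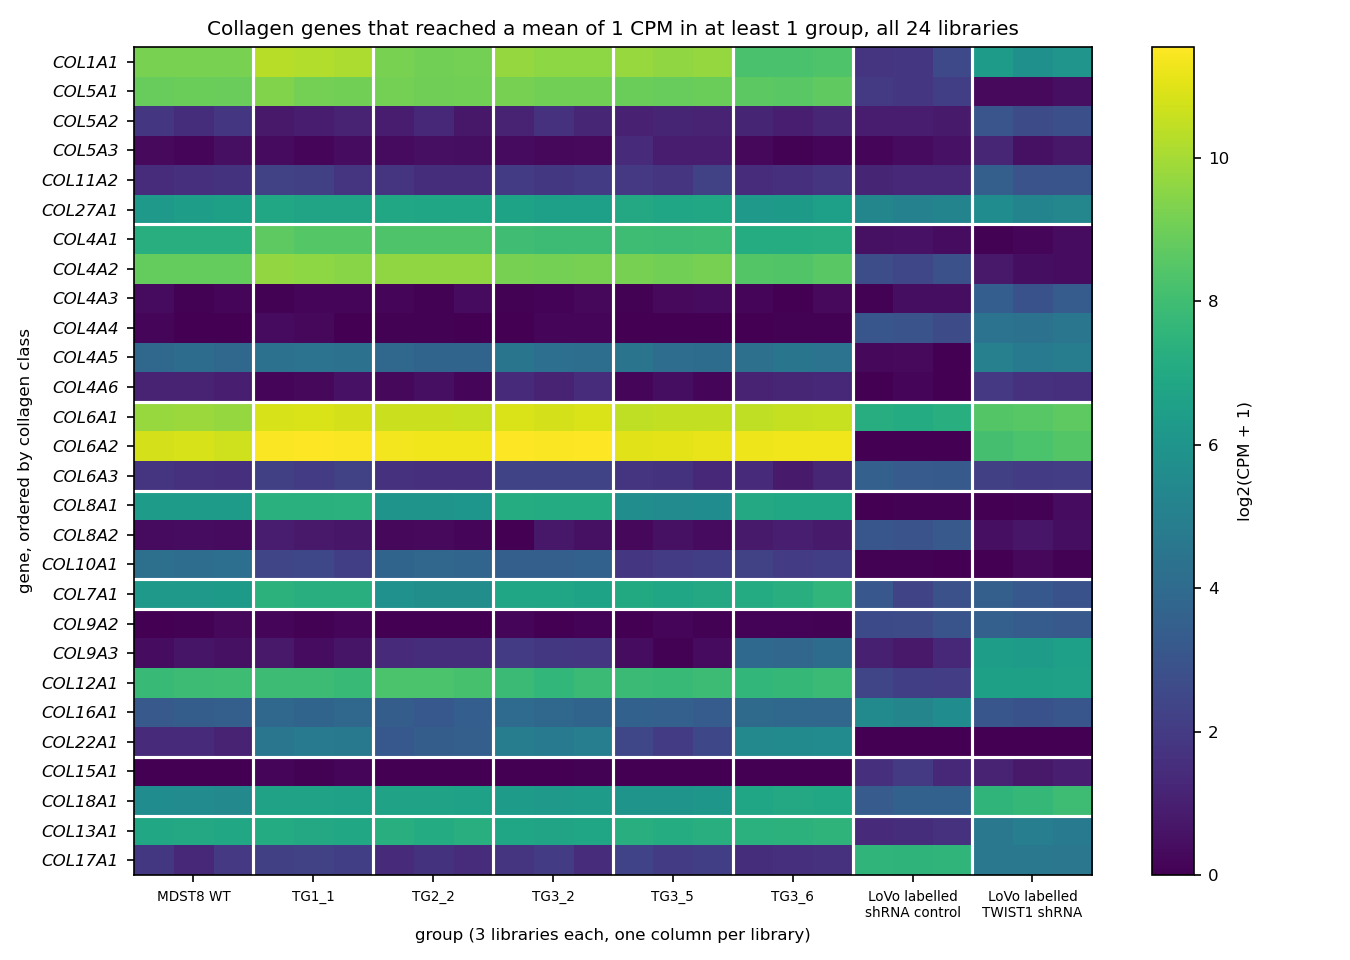
Level of each of the 28 collagen genes detected in at least 1 group, as log2(CPM + 1), with 1 column per library and white lines between groups and between collagen classes. COL6A1, COL6A2, COL1A1, COL5A1 and COL4A2 are brightest in the MDST8 groups, and COL17A1 and COL6A1 in the LoVo libraries labelled shRNA control.

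To compare genes with each other, levels were divided by exon length. In WT MDST8 the leading collagens were COL6A2 with 331 ± 13.5 CPM per kb (SD, n = 3) and COL6A1 with 158 ± 4.44 CPM per kb. They were followed by COL1A1 with 66.5 ± 0.758, COL5A1 with 42.8 ± 1.44 and COL4A2 with 23.4 ± 0.224 CPM per kb, and none of these neighbours overlapped within 1 SD. In the LoVo control libraries COL17A1, an epithelial transmembrane collagen of hemidesmosomes, had 26.5 ± 0.593 CPM per kb and COL6A1 had 26.1 ± 1.49, within 1 SD of each other. The next gene there was COL16A1 with 4.64 ± 0.605 CPM per kb. Under the TWIST1 label the order was COL6A1 with 68.2 ± 6.03, COL6A2 with 58.4 ± 6.20, COL18A1 with 25.2 ± 3.65 and COL9A3 with 17.7 ± 0.826 CPM per kb, and the first 2 of these differed by less than the sum of their SDs.

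Partner chains were not present in step. COL1A1 was among the leading collagens of MDST8, whereas COL1A2, its usual partner, held between 0 and 27 counts in any MDST8 library and at most 0.775 CPM as a group mean. COL6A3 stood far below its partners, at 0.102 CPM per kb in WT MDST8, 0.000648 times the level of COL6A1. COL5A2, the partner of COL5A1 in type V, had 0.315 CPM per kb. The ratio of COL6A2 to COL6A1 per length was 2.05 to 2.12 in the WT libraries and 1.598 to 1.78 in the 15 clone libraries, so that the groups did not overlap. COL4A2 to COL4A1 gave 2.21 to 2.30 in WT and 1.51 to 2.00 in the clones, again without overlap. In LoVo under the TWIST1 label COL6A2 to COL6A1 was 0.841 to 0.871, below every MDST8 library.

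**Figure D2:**
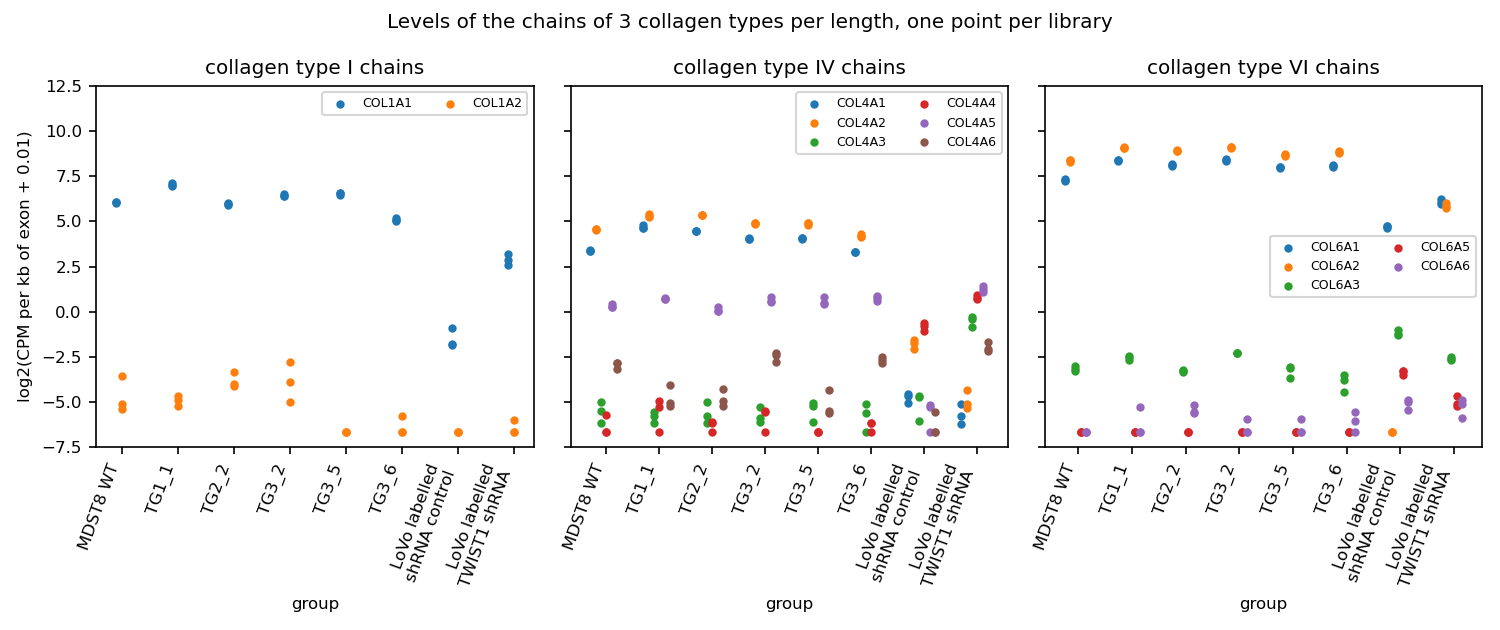
Chains of collagen types I, IV and VI in every library, as log2(CPM per kb of exon + 0.01), with 1 point per library and the groups along the x axis. COL1A2 lies far below COL1A1 and COL6A3 far below COL6A1 and COL6A2 in all MDST8 groups, and in LoVo the type IV chains change places between the labels.

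Of the 44 genes, 21 passed the filter on low counts in MDST8, a geometric mean of at least 1 read per 1000000 over the 18 libraries, taken with 1 added to each value and subtracted again, and were tested. A call needed a log2 fold change of more than 0.58 in size and p below 0.05 in the quasi-likelihood test of edgeR, adjusted by Benjamini-Hochberg over all 13706 genes tested. TG1_1 had 12 collagen genes called higher and 2 lower, where 12% and 7.49% of all genes tested were called higher and lower. TG2_2 had 6 higher and 1 lower (8.05% and 6.64% of all genes), and TG3_2 had 8 higher and 1 lower (10.9% and 6.09%). TG3_5 had 6 higher and 4 lower (11.2% and 7.25%), and TG3_6 had 5 higher and 4 lower (15.3% and 11.7%). The median log2 fold change of the collagen genes was 0.66 in TG1_1, 0.18 in TG2_2, 0.50 in TG3_2, 0.30 in TG3_5 and 0.04 in TG3_6, against medians within 0.02 of 0 for all genes. All 5 comparisons share the 3 WT libraries, and for that reason the clones were also tested together, as the mean of their log2 levels against WT. In that comparison 5 collagen genes were called higher (10.2% of all genes) and 2 lower (6.03%), and 14 were not called. COL22A1, COL9A3, COL18A1, COL6A1 and COL4A1 were higher in the mean and COL10A1 and COL5A2 lower, though COL9A3 and COL4A1 did not rise in every clone. COL9A3 passed the filter through the clones where it was high, so that its calls in these counts are descriptions. Nothing in the labels says that the 3 libraries of a group came from separate cultures, so that the p-values measure the spread between libraries, which may be technical. Those for the mean of the clones leave out the spread between clones and describe these 5 clones alone. The clones also differed from each other in 20 of the 21 genes, in a test across the 5 clones that called 81.0% of all genes, and COL5A2 was the exception (edgeR adjusted p = 0.14). Fewer cells making a transcript and less transcript per cell cannot be told apart in these bulk samples.

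**Figure D3:**
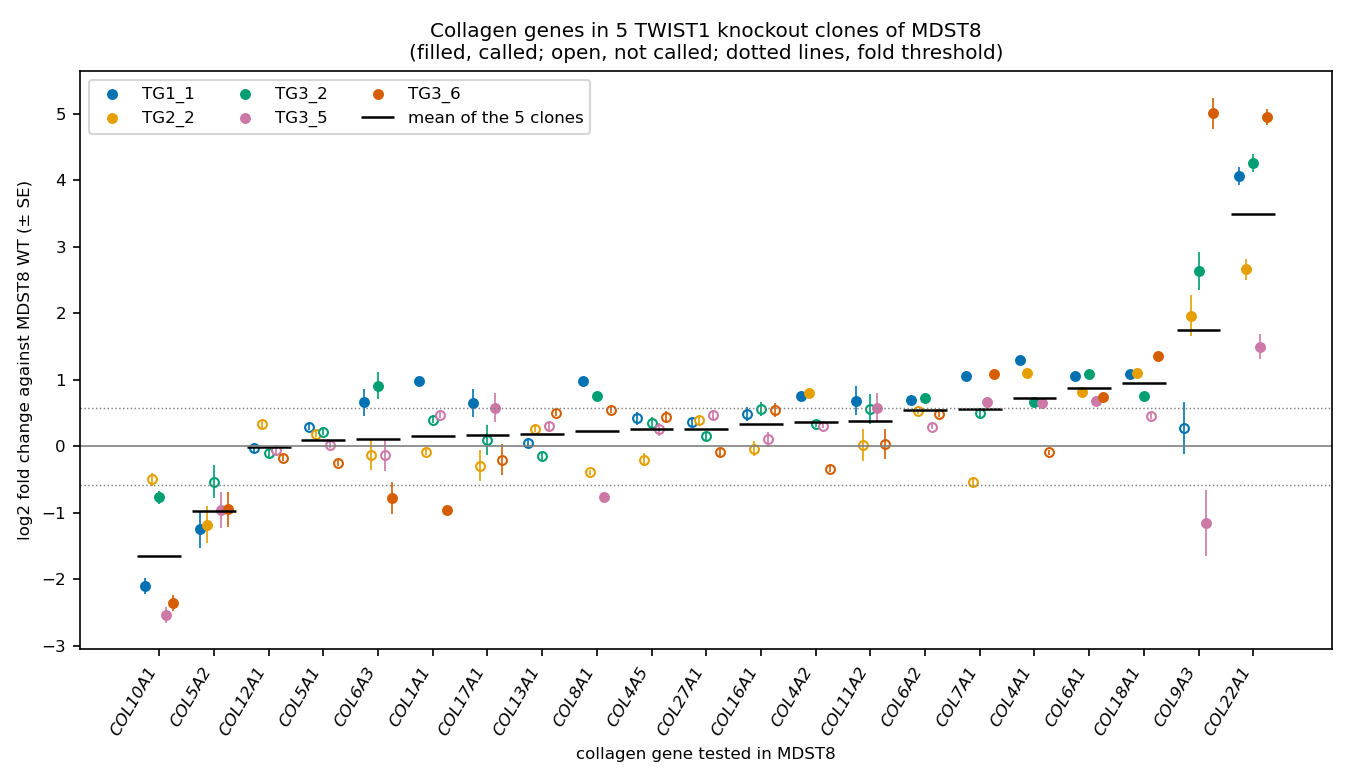
Log2 fold change against WT, with its standard error, of the 21 collagen genes tested in MDST8, with 1 color per clone, filled points for calls and black lines for the mean of the 5 clones. COL10A1 and COL5A2 lie below 0 and COL22A1 and COL6A1 above 0 in all 5 clones, whereas COL1A1, COL8A1 and COL9A3 have filled points on both sides.

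Among the fibril-forming collagens, COL1A1 (chr17:50184101-50201632, minus strand), the main fibrillar chain of stroma, was 604, 602 and 591 CPM in the WT libraries, 1280.3, 1178 and 1115 in TG1_1, 593, 549.9 and 566 in TG2_2, 830.0, 763 and 778 in TG3_2, 870.2, 798 and 849 in TG3_5, and 302, 296 and 326 in TG3_6. TG1_1, TG3_2 and TG3_5 lay above all WT libraries, TG2_2 overlapped WT and TG3_6 lay below it. COL1A1 rose in TG1_1 by a log2 fold change of 0.98 (SE 0.04, edgeR adjusted p = 7.29e-20) and fell in TG3_6, -0.96 (SE 0.05, edgeR adjusted p = 1.39e-19). COL5A1, which helps to set fibril diameter, was 459, 490.1 and 483 CPM in the WT libraries, 647, 569 and 546 in TG1_1, 565, 530.1 and 542 in TG2_2, 575, 542 and 549 in TG3_2, 498, 469 and 493 in TG3_5, and 397, 390.0 and 422 in TG3_6. Its log2 fold changes ran from -0.25 in TG3_6 to 0.29 in TG1_1 and none was called. COL27A1, a fibrillar collagen of cartilage, was 74.9, 86.9 and 93.1 CPM in the WT libraries, 119, 105 and 106 in TG1_1, 116, 108 and 114 in TG2_2, 104, 90.2 and 91.2 in TG3_2, 124, 113 and 121 in TG3_5, and 72.1, 78.5 and 90.1 in TG3_6, and TG1_1, TG2_2 and TG3_5 lay above WT without a call, at log2 fold changes of 0.36, 0.39 and 0.48. COL5A2, at a far lower level, was 2.56, 1.85 and 2.50 CPM in the WT libraries, 0.734, 0.925 and 1.25 in TG1_1, 0.919, 1.45 and 0.681 in TG2_2, 1.25, 2.13 and 1.37 in TG3_2, 1.11, 1.31 and 1.15 in TG3_5, and 1.26, 0.982 and 1.33 in TG3_6. A single TG3_2 library, at 2.13 CPM, lay within the WT range and the other 14 clone libraries lay below it, with a log2 fold change of -0.97 (SE 0.20, edgeR adjusted p = 5.16e-05) for the mean of the clones. COL5A2 was called in TG1_1, TG2_2, TG3_5 and TG3_6, at -1.25, -1.18, -0.96 and -0.95 on the log2 scale (edgeR adjusted p from 0.000189 to 0.00258), and in TG3_2 it was at -0.53 without a call. COL11A2, a minor fibrillar chain of cartilage, was 1.78, 2.00 and 2.2 CPM in the WT libraries, 3.72, 3.56 and 2.4 in TG1_1, 2.399, 1.88 and 1.83 in TG2_2, 3.21, 2.71 and 2.98 in TG3_2, 2.73, 2.36 and 3.90 in TG3_5, and 1.79, 1.96 and 2.39 in TG3_6. TG1_1, TG3_2 and TG3_5 lay above WT. It was called higher in TG1_1, 0.69 (SE 0.22, edgeR adjusted p = 0.0067), and at the threshold in TG3_5, 0.58 (SE 0.22, edgeR adjusted p = 0.0239), where the call was lost without WT replicate A (0.52 on the log2 scale) or without TG3_5 replicate C (0.35), without the filter on low counts (0.566), with limma on unscaled counts (0.48) and with the replicate block (0.578, edgeR adjusted p = 0.0293).

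The type IV genes lie in head-to-head pairs on opposite strands, and in the RefSeq start sites of GRCh38.p14 the partners stand 127 bp (COL4A1 and COL4A2), 419 bp (COL4A4 and COL4A3) and 380 bp (COL4A6 and COL4A5) apart. Promoters from 250 bp before to 50 bp after the start site were given by RefSeq for 32 of the 44 genes. The window of 1 gene of each pair is printed because the type IV results below turn on these pairs, with CANNTG, the E-box letters that bHLH factors recognise, in capitals. The windows are chr13:110307034-110307333, plus strand, for COL4A2, chr2:227164374-227164673, plus strand, for COL4A3, and chrX:108439588-108439887, plus strand, for COL4A5.
COL4A2: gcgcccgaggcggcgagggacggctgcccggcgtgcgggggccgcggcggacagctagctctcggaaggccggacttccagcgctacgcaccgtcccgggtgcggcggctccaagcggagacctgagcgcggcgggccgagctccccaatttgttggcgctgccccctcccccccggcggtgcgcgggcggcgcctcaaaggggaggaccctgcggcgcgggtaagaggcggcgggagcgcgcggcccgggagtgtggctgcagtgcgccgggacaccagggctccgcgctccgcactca
COL4A3: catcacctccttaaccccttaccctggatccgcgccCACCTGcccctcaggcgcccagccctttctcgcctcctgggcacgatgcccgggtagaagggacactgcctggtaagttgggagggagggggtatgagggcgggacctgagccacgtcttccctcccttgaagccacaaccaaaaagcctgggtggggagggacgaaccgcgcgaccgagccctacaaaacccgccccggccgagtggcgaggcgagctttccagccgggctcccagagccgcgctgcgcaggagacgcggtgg
COL4A5: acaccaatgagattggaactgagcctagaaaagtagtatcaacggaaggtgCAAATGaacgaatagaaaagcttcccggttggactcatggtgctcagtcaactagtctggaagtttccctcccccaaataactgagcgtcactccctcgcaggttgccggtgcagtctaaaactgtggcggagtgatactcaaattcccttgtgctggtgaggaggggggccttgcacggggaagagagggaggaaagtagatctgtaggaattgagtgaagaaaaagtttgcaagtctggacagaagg
The COL4A2 window also holds the start site of COL4A1, has no CANNTG, and lies 1472 bp from the GENCODE 5′ end of COL4A2. Those of COL4A3 and COL4A5 hold 1 CANNTG each, CACCTG and CAAATG.

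COL4A1 (chr13:110148963-110307157, minus strand), a chain of the ubiquitous basement membrane network, was 153, 157 and 149.9 CPM in the WT libraries, 406, 366 and 365 in TG1_1, 331, 331 and 328 in TG2_2, 252, 238 and 244 in TG3_2, 245, 237 and 248 in TG3_5, and 143, 143 and 147 in TG3_6. COL4A2, its partner, was 447, 455 and 453 CPM in the WT libraries, 824, 757 and 724 in TG1_1, 789, 795 and 801 in TG2_2, 578, 559 and 577 in TG3_2, 572, 545 and 576 in TG3_5, and 350.1, 339.7 and 385 in TG3_6. For both genes TG1_1, TG2_2, TG3_2 and TG3_5 lay above every WT library and TG3_6 lay below. COL4A1 rose in TG1_1 (1.30), TG2_2 (1.10), TG3_2 (0.67) and TG3_5 (0.66), each with an SE of 0.04 and an edgeR adjusted p of at most 1.68e-16, and was at -0.09 in TG3_6. Over the mean of the clones its log2 fold change was 0.73 (SE 0.03, edgeR adjusted p = 1.68e-20). COL4A2 rose in TG1_1, 0.76 (SE 0.04, edgeR adjusted p = 1.63e-17), and TG2_2, 0.80 (SE 0.04, edgeR adjusted p = 7e-18), and was at 0.33, 0.31 and -0.34 in TG3_2, TG3_5 and TG3_6 without a call. COL4A5, a chain of epithelial basement membranes, was 14.03, 15.8 and 13.9 CPM in the WT libraries, 19.2, 20.02 and 19.6 in TG1_1, 13.9, 12.2 and 12.3 in TG2_2, 21.2, 17.9 and 17.1 in TG3_2, 20.6, 16.6 and 15.9 in TG3_5, and 18.1, 21.4 and 20.3 in TG3_6. TG2_2 stood at or under the lower end of WT and the other clones above it, at log2 fold changes between -0.20 and 0.45, and no clone was called. COL4A6, below the filter, had group means of 1.12 CPM in WT, 1.58 in TG3_2 and 1.37 in TG3_6, and 0.271, 0.249 and 0.194 in TG1_1, TG2_2 and TG3_5. COL4A3 and COL4A4 had at most 5 counts in any MDST8 library.

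COL6A1 and COL6A2, chains of the beaded filaments that link basement membranes to the interstitial matrix, lie near each other at chr21:45981770-46005050, plus strand, and chr21:46098112-46132848, plus strand. COL6A1 was 871, 901 and 852 CPM in the WT libraries, 1843, 1879 and 1773 in TG1_1, 1589, 1559 and 1516 in TG2_2, 1894, 1796 and 1912 in TG3_2, 1373, 1412 and 1443 in TG3_5, and 1407, 1468 and 1521 in TG3_6. All 15 clone libraries lay above the WT libraries. COL6A1 rose in each clone, with log2 fold changes of 1.06 in TG1_1, 0.82 in TG2_2, 1.09 in TG3_2, 0.68 in TG3_5 and 0.74 in TG3_6 (edgeR adjusted p of at most 1.65e-17), and 0.88 (SE 0.03, edgeR adjusted p = 3.12e-23) for their mean. COL6A2 was 1779.5, 1826 and 1685 CPM in the WT libraries, 2872, 2956 and 2810.1 in TG1_1, 2624, 2544 and 2506 in TG2_2, 2942, 2860.1 and 2987 in TG3_2, 2115, 2174 and 2260.0 in TG3_5, and 2405, 2519 and 2489 in TG3_6. Here too every clone library exceeded every WT library, but the fold was called in TG1_1 (0.70) and TG3_2 (0.73, edgeR adjusted p of at most 2.88e-18), and was 0.52, 0.30 and 0.48 in TG2_2, TG3_5 and TG3_6. Its mean over the clones, 0.55 (SE 0.03, edgeR adjusted p = 4.82e-18), lay under the fold threshold. COL6A3 was 2.46, 2.15 and 2.00 CPM in the WT libraries, 3.56, 3.19 and 3.76 in TG1_1, 2.09, 2.03 and 1.94 in TG2_2, 4.13, 4.17 and 4.17 in TG3_2, 2.38, 2.25 and 1.45 in TG3_5, and 1.66, 0.786 and 1.38 in TG3_6. TG1_1 and TG3_2 lay above WT and TG3_6 below it. COL6A3 rose in TG1_1, 0.66 (SE 0.21, edgeR adjusted p = 0.00623), and in TG3_2, 0.91 (SE 0.20, edgeR adjusted p = 0.000233), and fell in TG3_6, -0.78 (SE 0.24, edgeR adjusted p = 0.00456), although the last call was lost without TG3_6 replicate B (-0.52).

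COL8A1, a chain of the short network of vessel walls and corneal membranes, was 81.4, 82.1 and 82.0 CPM in the WT libraries, 159.9, 162 and 167 in TG1_1, 61.8, 61.5 and 65.7 in TG2_2, 142, 136 and 137 in TG3_2, 50.2, 47.1 and 48.0 in TG3_5, and 124, 118 and 118 in TG3_6. The clones lay on both sides of WT with no overlap, TG1_1, TG3_2 and TG3_6 above and TG2_2 and TG3_5 below. COL8A1 rose in TG1_1, 0.99 (SE 0.04, edgeR adjusted p = 1.43e-21), and TG3_2, 0.75 (SE 0.04, edgeR adjusted p = 4.82e-18), and fell in TG3_5, -0.77 (SE 0.04, edgeR adjusted p = 4.89e-17). In TG3_6 and TG2_2 it was at 0.55 and -0.39. COL10A1, known from hypertrophic cartilage and from tumor stroma, was 18.5, 16.7 and 17.6 CPM in the WT libraries, 4.30, 4.62 and 3.39 in TG1_1, 12, 13.03 and 12.7 in TG2_2, 10.2, 10.1 and 10.9 in TG3_2, 2.50, 3.20 and 3.40 in TG3_5, and 3.68, 3.19 and 3.45 in TG3_6. Every clone library lay below every WT library, with TG1_1, TG3_5 and TG3_6 lowest. COL10A1 fell by 2.1 in TG1_1, by 0.76 in TG3_2, by 2.54 in TG3_5 and by 2.35 in TG3_6 on the log2 scale (edgeR adjusted p of at most 3.69e-08). TG2_2 was at -0.50 and the mean of the clones at -1.65 (SE 0.08, edgeR adjusted p = 1.85e-19). COL7A1, the anchoring fibril collagen under epithelia, was 73.2, 75.6 and 78.4 CPM in the WT libraries, 173, 149 and 154 in TG1_1, 55.8, 50.7 and 51.1 in TG2_2, 113, 109 and 101 in TG3_2, 128, 113 and 123 in TG3_5, and 136, 156 and 192 in TG3_6. TG2_2 lay below WT and the other clones above it. COL7A1 rose in TG1_1, 1.06 (SE 0.07, edgeR adjusted p = 1.57e-14), TG3_5, 0.67 (SE 0.08, edgeR adjusted p = 2.15e-09), and TG3_6, 1.09 (SE 0.07, edgeR adjusted p = 3.82e-15), and was at 0.50 in TG3_2 and -0.54 in TG2_2. Of the 32 collagen genes with a RefSeq promoter, COL7A1 and COL10A1 alone held CATCTG, an E-box form the study names, on either strand. The COL7A1 window is chr3:48595280-48595579, minus strand, and that of COL10A1 chr6:116217095-116217394, minus strand, both printed with every CANNTG in capitals, and the COL10A1 window lies 58397 bp from the GENCODE 5′ end of that gene.
COL7A1: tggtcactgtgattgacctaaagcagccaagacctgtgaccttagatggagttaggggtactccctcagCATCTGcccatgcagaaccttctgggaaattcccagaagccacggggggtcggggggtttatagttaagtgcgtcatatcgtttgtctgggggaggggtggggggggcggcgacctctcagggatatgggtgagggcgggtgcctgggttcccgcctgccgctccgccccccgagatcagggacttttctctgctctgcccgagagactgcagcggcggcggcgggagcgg
COL10A1: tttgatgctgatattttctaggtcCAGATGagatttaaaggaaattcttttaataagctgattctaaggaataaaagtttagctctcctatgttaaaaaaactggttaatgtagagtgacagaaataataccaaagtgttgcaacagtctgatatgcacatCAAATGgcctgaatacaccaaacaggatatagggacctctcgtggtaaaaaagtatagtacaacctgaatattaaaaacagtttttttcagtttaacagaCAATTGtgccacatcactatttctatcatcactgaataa
CATCTG on either strand was in 2 of the 32 promoters (6.25%), against 14.7% of all 35116 RefSeq promoters of this length, and CANNTG, which includes it, was in 18 of 32 (56.2%) against 68.7%.

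The FACITs, which sit on the surface of fibrils, held the largest changes in the clones. COL22A1, known from tissue junctions such as those of muscle and tendon, was 1.57, 1.599 and 1.15 CPM in the WT libraries, 22.2, 25.8 and 24.5 in TG1_1, 8.12, 9.46 and 10.1 in TG2_2, 27.9, 26.3 and 29.3 in TG3_2, 4.42, 3.20 and 4.70 in TG3_5, and 42.5, 45.4 and 46.6 in TG3_6. Every clone library lay above WT, TG3_5 the least and TG3_6 the most. COL22A1 rose in all clones, by log2 fold changes of 4.06 in TG1_1, 2.67 in TG2_2, 4.26 in TG3_2, 1.5 in TG3_5 and 4.96 in TG3_6 (edgeR adjusted p of at most 1.7e-08), and 3.49 (SE 0.13, edgeR adjusted p = 1.17e-22) over their mean. The WT libraries held 23 to 32 counts of it. COL9A3, a chain of the cartilage FACIT type IX, was 0.314, 0.550 and 0.450 CPM in the WT libraries, 0.734, 0.324 and 0.574 in TG1_1, 1.58, 1.83 and 1.83 in TG2_2, 3.21, 2.62 and 2.56 in TG3_2, 0.291, 0.0524 and 0.250 in TG3_5, and 14.3, 12.9 and 16.04 in TG3_6. TG2_2, TG3_2 and TG3_6 lay above WT, TG1_1 overlapped it and TG3_5 lay below. COL9A3 rose in TG2_2, 1.97 (SE 0.31, edgeR adjusted p = 1.75e-06), TG3_2, 2.64 (SE 0.28, edgeR adjusted p = 7.5e-10), and TG3_6, 5.01 (SE 0.23, edgeR adjusted p = 1.28e-19). In TG3_5 it was called lower, -1.15 (SE 0.50, edgeR adjusted p = 0.0448), from 1 to 5 counts a library against 6 to 11 in WT, and that call was lost without WT replicate B (-0.95) or C (-1.12) or TG3_5 replicate B (-0.70) or C (-1.37). The TG3_5 call was also lost with DESeq2 (DESeq2 adjusted p = 0.0503) and without the filter on low counts (edgeR adjusted p = 0.0977). The mean of the clones was at 1.75 (SE 0.29, edgeR adjusted p = 2.01e-06), where SE and p leave out the spread between clones. COL9A3 had group means of 0.438 CPM in WT, 0.544 in TG1_1 and 0.198 in TG3_5. It passed the filter on low counts through the clones where it was high, so that its calls and fold changes are descriptions. The other type IX chains were nearly absent from MDST8, since COL9A2 had at most 0.0851 CPM as a group mean. COL12A1, a FACIT of dense connective tissue, was 223, 241 and 249 CPM in the WT libraries, 240.3, 239 and 222 in TG1_1, 313, 306 and 286 in TG2_2, 234, 201 and 230.0 in TG3_2, 236, 217 and 238 in TG3_5, and 200.2, 202 and 232 in TG3_6. TG2_2 lay above WT, at 0.33 on the log2 scale, the other clones overlapped it and none was called. COL16A1, found near basement membranes, was 8.43, 9.59 and 10.3 CPM in the WT libraries, 14, 12.1 and 13.9 in TG1_1, 9.75, 8.11 and 10.1 in TG2_2, 15.6, 14.1 and 12.4 in TG3_2, 11.1, 10.6 and 9.20 in TG3_5, and 15.02, 13.6 and 13.01 in TG3_6. TG1_1, TG3_2 and TG3_6 lay above WT and the others overlapped it. Its largest log2 fold change was 0.56 in TG3_2, not called.

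COL18A1 (chr21:45405165-45513720, plus strand), a basement membrane proteoglycan whose end fragment is endostatin, was 48.6, 46.7 and 42.1 CPM in the WT libraries, 99.5, 99.6 and 95.5 in TG1_1, 100.4, 99.5 and 96.6 in TG2_2, 78.6, 72.6 and 81.6 in TG3_2, 61.2, 61.2 and 67.9 in TG3_5, and 112, 126 and 116 in TG3_6. All clone libraries lay above WT. COL18A1 rose in TG1_1 (1.10), TG2_2 (1.10), TG3_2 (0.75) and TG3_6 (1.36, edgeR adjusted p of at most 6.71e-14), was at 0.46 in TG3_5 and at 0.95 (SE 0.04, edgeR adjusted p = 2.36e-19) over the mean. Its exons overlap those of the antisense gene SLC19A1 over 18.5% of their length. Strand was not used in counting, and SLC19A1 itself was at -0.43 over the mean of the clones. Of the transmembrane collagens, COL13A1, found at cell-matrix adhesions, was 120.0, 126 and 116 CPM in the WT libraries, 136, 122 and 117 in TG1_1, 149, 135 and 154 in TG2_2, 111, 107 and 110.3 in TG3_2, 156, 143 and 151 in TG3_5, and 164, 169.7 and 181 in TG3_6, with no call. TG3_2 lay below WT, TG2_2, TG3_5 and TG3_6 above it, and TG3_6 was highest at a log2 fold change of 0.50. COL17A1 was 2.67, 1.499 and 2.75 CPM in the WT libraries, 3.62, 3.84 and 3.44 in TG1_1, 1.68, 2.27 and 1.73 in TG2_2, 2.45, 3.15 and 1.80 in TG3_2, 4.07, 2.99 and 3.40 in TG3_5, and 1.88, 2.01 and 2.11 in TG3_6. TG1_1 and TG3_5 lay above WT and the others overlapped it. COL17A1 was called higher in TG1_1, 0.65 (SE 0.22, edgeR adjusted p = 0.00954), and TG3_5, 0.58 (SE 0.22, edgeR adjusted p = 0.0224), and both calls were lost without WT replicate B, at 0.43 and 0.36, the second also without TG3_5 replicate A, at 0.47. The TG3_5 call was lost as well without the filter on low counts (0.566) and with limma on unscaled counts (0.55, limma adjusted p = 0.0552).

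In LoVo, 22 collagen genes were tested, and under the TWIST1 shRNA label 13 were called higher and 7 lower, where 26.6% and 26.1% of all genes tested were called in those directions. The median log2 fold change of the tested collagen genes was 1.53, against 0.01 over all genes. Without the TWIST1 shRNA replicate 1, which differed most from the other libraries of its group, the same count of 20 genes was called, 13 higher and 7 lower, and all 20 had been called before. For each of the 20 genes the 3 libraries of one label lay wholly above or below those of the other. This largely follows from the choice of genes, which were called from these same libraries. COL27A1 and COL7A1 were not called, at 0.24 and 0.48. COL5A2, COL4A3, COL4A5, COL4A6 and COL6A2 were detected under the TWIST1 label alone, and COL5A1, COL4A2, COL8A2 and COL15A1 under the control label alone. Apart from COL4A6, which was not tested, these genes passed the filter through the group where they were high. Their calls and fold changes enter the count of 20 and the median, which are therefore descriptions.

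**Figure D4:**
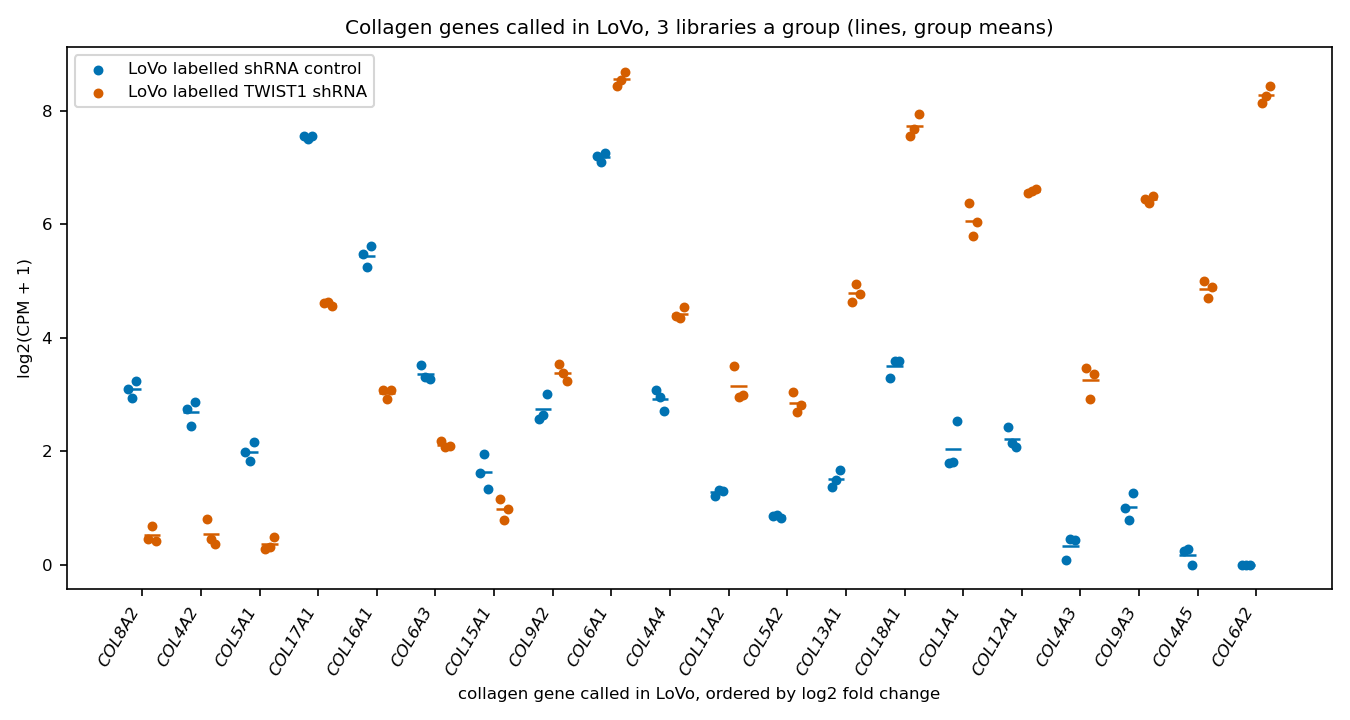
Level of the 20 collagen genes called in LoVo, as log2(CPM + 1), in the 3 libraries of each label, with lines for group means and genes ordered by log2 fold change. The groups do not overlap for any of the 20 genes, which were called from these same libraries, and COL6A2 has no count under the control label.

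Fibril-forming chains moved both ways. COL1A1 was 2.45, 2.49 and 4.81 CPM under the control label and 81.8, 54.4 and 64.7 CPM under the TWIST1 label. It rose by a log2 fold change of 4.39 (SE 0.19, edgeR adjusted p = 2.58e-12). COL5A2 was 0.816, 0.831 and 0.763 CPM under the control label and 7.21, 5.48 and 6.02 CPM under the TWIST1 label, a rise of 2.96 (SE 0.25, edgeR adjusted p = 1.4e-08), while its partner COL5A1 was 2.95, 2.55 and 3.46 CPM under the control label and 0.215, 0.241 and 0.401 CPM under the TWIST1 label. COL5A1 fell, -3.34 (SE 0.36, edgeR adjusted p = 2.89e-07). COL11A2 was 1.32, 1.51 and 1.47 CPM under the control label and 10.3, 6.81 and 6.94 CPM under the TWIST1 label and rose by 2.50 (SE 0.24, edgeR adjusted p = 5.06e-08). COL27A1 was 37.8, 32.3 and 35.9 CPM under the control label and 48.6, 35.4 and 39.7 CPM under the TWIST1 label, which overlapped. COL1A2 had at most 1 count in a LoVo library.

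Type IV chains moved in opposite directions. COL4A2 was 5.71, 4.47 and 6.34 CPM under the control label and 0.753, 0.361 and 0.287 CPM under the TWIST1 label, and it fell, -3.50 (SE 0.33, edgeR adjusted p = 4.68e-08). COL4A1 was 0.440, 0.468 and 0.294 CPM under the control label and 0.0538, 0.120 and 0.287 CPM under the TWIST1 label, too low to be tested. COL4A5, the chain shared by the other type IV networks, was 0.188, 0.208 and 0 CPM under the control label and 31.2, 25.0 and 28.7 CPM under the TWIST1 label. It rose by 7.67 (SE 0.27, edgeR adjusted p = 1.3e-13) from 0 to 4 counts in a control library, so that its fold rests on few counts. COL4A3, at 1 to 7 counts in a control library, was 0.0628, 0.364 and 0.352 CPM under the control label and 10.1, 6.63 and 9.29 CPM under the TWIST1 label. COL4A4 was 7.47, 6.75 and 5.52 CPM under the control label and 19.8, 19.5 and 22.3 CPM under the TWIST1 label. Both rose, by 5.00 (SE 0.35, edgeR adjusted p = 9.56e-10) and 1.66 (SE 0.13, edgeR adjusted p = 3.95e-09). COL4A6 was 0, 0.104 and 0 CPM under the control label and 2.80, 2.17 and 2.01 CPM under the TWIST1 label and was not tested. COL4A3 shares 6.82% of its exon length with the antisense gene MFF-DT.

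COL6A1 was 147, 135 and 151 CPM under the control label and 347, 371 and 413 CPM under the TWIST1 label, a rise of 1.40 (SE 0.07, edgeR adjusted p = 1.39e-11). COL6A2 had no count in the control libraries and 281, 307 and 347 CPM under the TWIST1 label. Taken against a floor of 3 counts in each control library, 0.156 to 0.188 CPM, it was at least 1797-fold higher. COL6A3, the remaining chain, was 10.5, 8.94 and 8.69 CPM under the control label and 3.55, 3.19 and 3.27 CPM under the TWIST1 label and fell, -1.47 (SE 0.17, edgeR adjusted p = 6.77e-07). Control libraries thus held COL6A1 and COL6A3 without COL6A2. The other network collagens were low, and COL8A2 was 7.60, 6.70 and 8.45 CPM under the control label and 0.377, 0.602 and 0.344 CPM under the TWIST1 label. COL8A2 fell, -4.07 (SE 0.28, edgeR adjusted p = 8.67e-10). COL8A1 and COL10A1 had at most 5 counts in any LoVo library, and COL7A1 was 7.79, 4.10 and 6.22 CPM under the control label and 10.1, 8.19 and 6.54 CPM under the TWIST1 label, with overlapping groups.

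COL9A3 was 1.00, 0.727 and 1.41 CPM under the control label and 86.2, 81.8 and 89.8 CPM under the TWIST1 label and rose by 6.38 (SE 0.13, edgeR adjusted p = 2.07e-16). COL9A2 was 4.96, 5.25 and 7.104 CPM under the control label and 10.6, 9.40 and 8.49 CPM under the TWIST1 label, a smaller rise of 0.74 (SE 0.17, edgeR adjusted p = 0.000856), and COL9A1, the remaining chain of type IX, had no counts. COL12A1 was 4.396, 3.43 and 3.23 CPM under the control label and 93.5, 94.9 and 97.3 CPM under the TWIST1 label, with a log2 fold change of 4.71 (SE 0.10, edgeR adjusted p = 2.53e-16). COL16A1 was 43.3, 37.2 and 48.4 CPM under the control label and 7.48, 6.57 and 7.51 CPM under the TWIST1 label. COL16A1 fell, -2.56 (SE 0.12, edgeR adjusted p = 3.85e-12). COL22A1, the collagen gene with the largest rise in the mean of the MDST8 clones, had 0 counts in all 6 LoVo libraries, a level below 0.188 CPM at a floor of 3 counts. COL18A1 was 8.85, 11.1 and 11.1 CPM under the control label and 187, 205 and 247 CPM under the TWIST1 label, a rise of 4.38 (SE 0.11, edgeR adjusted p = 2.09e-15), and SLC19A1, which overlaps it, was at 0.42. COL15A1, the other multiplexin, was 2.07, 2.86 and 1.53 CPM under the control label and 1.24, 0.723 and 0.975 CPM under the TWIST1 label and fell by 1.11 on the log2 scale (SE 0.33, edgeR adjusted p = 0.00584). COL13A1 was 1.57, 1.82 and 2.17 CPM under the control label and 23.9, 29.9 and 26.2 CPM under the TWIST1 label and rose by 3.86 (SE 0.15, edgeR adjusted p = 6.05e-13). COL17A1 was 188, 180.2 and 187 CPM under the control label and 23.6, 23.9 and 22.6 CPM under the TWIST1 label. COL17A1 fell, -2.97 (SE 0.06, edgeR adjusted p = 3.68e-16), where 11 of 12 colon epithelial markers were called lower as well, and their part in it was not tested.

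MDST8 WT and the LoVo control libraries were compared in a fit of all 24 libraries, in which 21 collagen genes were tested. MDST8 was higher in 16 (34.0% of all genes) and lower in 4 (30.6%), and COL11A2 was not called. The filter is weighted to MDST8, which gave 18 of the 24 libraries, so that COL4A3, COL4A4, COL8A2, COL9A2 and COL15A1, which were tested in LoVo alone, were not tested here. Without the filter 43 were tested, of which MDST8 was higher in 19 and lower in 13. The median of all genes lay at 0.06 on the log2 scale with TMM factors and at 0.22 without scaling, and every called log2 fold change was larger than 1 in size. COL4A1, COL1A1, COL5A1, COL4A2 and COL12A1 were higher in MDST8 by log2 fold changes of 8.54, 7.52, 7.32, 6.36 and 6.01 (edgeR adjusted p of at most 1.95e-32). COL8A1 and COL10A1, called higher in MDST8 as well, had 0 or 1 count in each LoVo control library. COL6A2 was at least 10170-fold and COL22A1 at least 8.3-fold higher in MDST8, against the floor of 3 counts. COL17A1, COL16A1, COL6A3 and COL9A3 were lower in MDST8, at -6.33, -2.19, -2.09 and -1.23 (edgeR adjusted p of at most 0.00149). COL15A1, with no count in WT MDST8, was at least 14.1-fold higher in the LoVo control libraries. Against the LoVo libraries labelled TWIST1 shRNA, MDST8 WT was higher in 13 (30.6% of all genes) and lower in 7 (29.1%), and COL16A1 was not called. Without the filter the counts were 15 higher and 16 lower. The genes lower in MDST8 there were COL9A3 (-7.60), COL17A1 (-3.35), COL18A1 (-2.23), COL11A2 (-2.02), COL5A2 (-1.45), COL4A5 (-0.97) and COL6A3 (-0.61, edgeR adjusted p of at most 0.00673). COL6A3 was close to the fold threshold and lost its call without WT replicate C (-0.54) or TWIST1 shRNA replicate 1 (-0.57). The call was also lost without the filter (-0.54), with edgeR's filterByExpr as the filter (-0.53), with limma on unscaled counts (-0.43) and in a fit of only the groups compared (-0.55).

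The LoVo change, by label, was set against the mean change of the 5 clones in the same fit, for the 17 collagen genes tested in both lines. The changes differed for 15 of them, where 73.6% of all genes differed at an adjusted p below 0.05. COL1A1, COL5A2, COL4A5, COL6A1, COL6A2, COL9A3, COL11A2, COL12A1, COL13A1 and COL18A1 had the higher change in LoVo, and COL4A2, COL5A1, COL6A3, COL16A1 and COL17A1 the lower. Of these, COL5A2, COL4A5, COL6A2, COL4A2 and COL5A1 passed the LoVo filter through the label where they were high. COL9A3 passed the MDST8 filter through the clones where it was high. The counts of genes that differed are therefore descriptions. COL27A1 and COL7A1 were the exceptions, with differences of -0.04 (SE 0.12, edgeR adjusted p = 0.807) and -0.08 (SE 0.21, adjusted p = 0.773). Because TWIST1 went against the LoVo labels, the test was repeated with them turned, an alternative chosen after the data were seen. All 17 genes then differed, where 74.0% of all genes did, with differences of -0.50 for COL27A1 (SE 0.12, edgeR adjusted p = 0.000298), -1.05 for COL7A1 (SE 0.21, adjusted p = 3.59e-05) and -2.27 for COL6A1 (SE 0.07, adjusted p = 4.86e-25).

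Genes that process, export, cross-link or bind collagen were counted from lists, and 50 of 67 were tested in MDST8. In the mean of the clones 12 of the 50 were called higher and 2 lower, against 10.2% and 6.03% of all genes. Propeptide cleavage, which frees fibril-forming collagens for assembly, had 4 of 5 tested genes higher, the receptors had 5 of 10 and cross-linking 2 of 3. Chain modification and folding had 0 higher and 1 lower of 18, export had no call among 7, and small proteoglycans and partners had 1 higher and 1 lower of 7. By the rule for named genes, the largest rises were of the collagen-binding integrin ITGA11, from 2.41 ± 0.318 CPM (SD, n = 3) in WT to 37.2 ± 3.54 in TG1_1 and 7.38 ± 0.304 in TG3_5, the procollagen protease ADAMTS14 and the integrin ITGA1. Their log2 fold changes over the mean of the clones were 2.91 (SE 0.10, edgeR adjusted p = 7.31e-23), 1.64 (SE 0.05, edgeR adjusted p = 1.99e-24) and 1.23 (SE 0.06, edgeR adjusted p = 6.8e-19). ADAMTS14 was 129 ± 4.82 CPM in WT and between 287 ± 20.4 in TG2_2 and 509 ± 45.0 in TG1_1. NID2, a basement membrane linker, and COLGALT1, which glycosylates collagen, fell, -1.15 (SE 0.22, edgeR adjusted p = 2.7e-05) and -0.68 (SE 0.03, edgeR adjusted p = 3.33e-21). In single clones the calls were 14 higher and 5 lower in TG1_1 (12% and 7.49% of all genes), 14 and 4 in TG2_2 (8.05% and 6.64%), 15 and 4 in TG3_2 (10.9% and 6.09%), 11 and 5 in TG3_5 (11.2% and 7.25%), and 12 and 8 in TG3_6 (15.3% and 11.7%).

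In LoVo 51 of these genes were tested, and 19 were higher and 14 lower under the TWIST1 label, against 26.6% and 26.1% of all genes. Cross-linking had 4 of 5 higher and none lower, the receptors 5 of 8 higher and none lower, and small proteoglycans and partners 1 of 6 higher and 5 lower. Chain modification and folding had 6 of 18 higher and 3 lower, propeptide cleavage 2 of 7 higher and 3 lower, and export 1 of 7 higher and 3 lower. The cross-linking oxidase LOXL2 was at 0.647 ± 0.0721 CPM under the control label and 108 ± 10.8 under the TWIST1 label, ADAMTS14 at 0.295 ± 0.195 and 44.4 ± 4.397, and the collagen chaperone FKBP10 at 0.871 ± 0.454 and 81.2 ± 3.42 (SD, n = 3 each). They rose by 7.37 (SE 0.14, edgeR adjusted p = 6.38e-17), 7.17 (SE 0.20, edgeR adjusted p = 8.02e-15) and 6.56 (SE 0.16, edgeR adjusted p = 1.05e-15) on the log2 scale. Each was below 1 CPM under the control label and passed the filter through the group where it was high. Their fold changes thus rest on few control counts, and with their part in the count of 19 they are descriptions. SPARC, a collagen-binding matricellular protein, went from 38.5 ± 0.721 to 1.23 ± 0.124 CPM, the prolyl 3-hydroxylase P3H2 from 106 ± 4.74 to 3.71 ± 0.405 and NID2 from 34.8 ± 3.14 to 1.30 ± 0.304. Their log2 fold changes were -4.94 (SE 0.13, edgeR adjusted p = 3.27e-15), -4.81 (SE 0.09, edgeR adjusted p = 9.35e-17) and -4.72 (SE 0.15, edgeR adjusted p = 5.45e-14).

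The TWIST1 ChIP-seq lists held 338877 peaks in MDST8 and 333621 in LoVo, 1 list per line, so that no value has a replicate. In MDST8 32 of the 44 collagen genes (72.7%) had a listed peak within 3000 bp of the 5′ end of the gene, where 70.8% of protein-coding genes had one, and in LoVo 24 (54.5%) had one, where 57.2% of protein-coding genes did. The collagen genes were thus close to the background in both lines. At a peak p of at most 0.001 the counts were 8 (18.2%) in MDST8, against 23.2% of protein-coding genes, and 5 (11.4%) in LoVo, against 17.3%. No collagen gene had a peak at a q of at most 0.05, which 0.469% and 0.359% of protein-coding genes had. The 8 MDST8 genes at the stricter p were COL20A1, COL11A2, COL22A1, COL1A2, COL2A1, COL7A1, COL17A1 and COL26A1, and the 5 LoVo genes were COL18A1, COL5A1, COL6A5, COL6A6 and COL16A1.

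**Figure D5:**
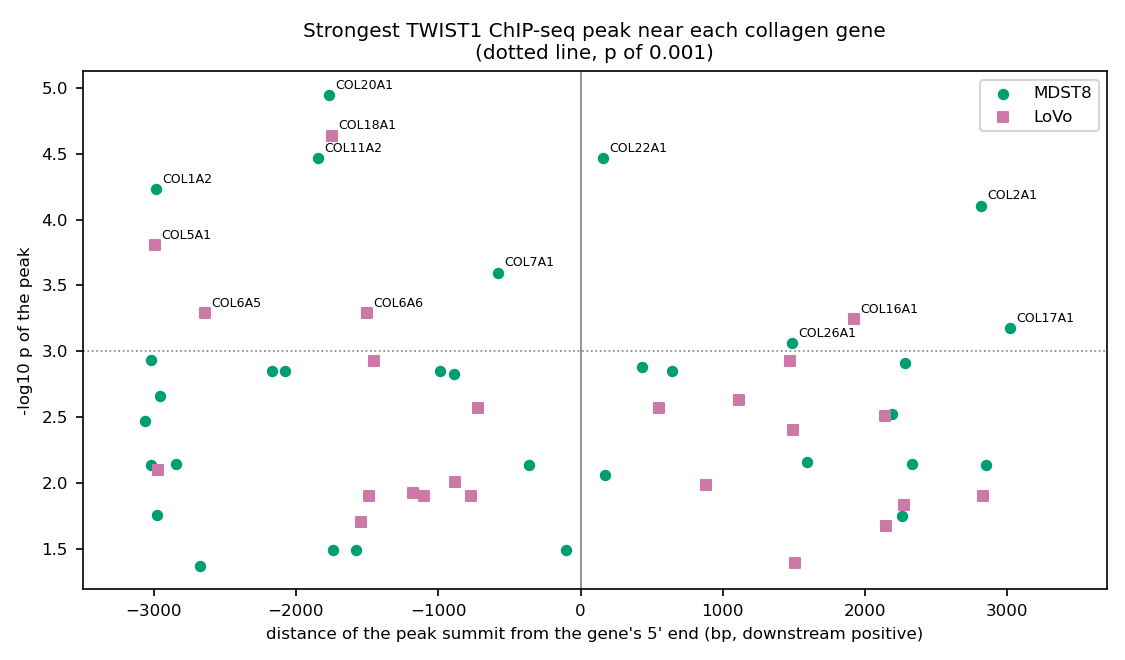
Strongest TWIST1 peak within 3000 bp of the 5′ end of each collagen gene, by the distance of its summit from that end in bp and its -log10 p, for 32 genes in MDST8 and 24 in LoVo. The summits are spread over the whole window, and 8 MDST8 and 5 LoVo peaks lie above the dotted line at a p of 0.001.

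Of the 7 genes called in the mean of the clones, 6 had a listed MDST8 peak and COL5A2 had none. COL22A1 had the strongest of these, with its summit 155 bp downstream of the 5′ end, a fold enrichment of 3.66 over the local background and a -log10 p of 4.47. COL9A3 had its strongest summit 887 bp upstream, at a fold enrichment of 2.66 and a -log10 p of 2.83. The peaks of COL4A1, COL18A1 and COL6A1 lay 3017, 2978 and 3060 bp upstream, at fold enrichments of 2.65, 2.02 and 2.35, and at the edge of the window. COL10A1 had a peak with a fold enrichment of 1.83, which was sought around the GENCODE 5′ end and not around the RefSeq start site. In COL7A1, whose promoter is printed above, the strongest peak, at chr3:48595751-48596029 in hg38, had its summit 579 bp upstream of the 5′ end at a fold enrichment of 2.98 and a -log10 p of 3.60. COL4A2, COL5A1, COL6A2 and COL16A1, all above 10 CPM in some MDST8 group, had no listed peak in that line by this window. For COL4A2 this depends on the GENCODE 5′ end. The COL4A1 peak, at chr13:110309976-110310232, lies within 3000 bp of the RefSeq start site of COL4A2. In LoVo, COL4A5, COL6A2 and COL9A3, with the largest rises there, had none either, and COL18A1 had its strongest summit 1748 bp upstream of the 5′ end, at a fold enrichment of 3.65 and a -log10 p of 4.64.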

How the data were processed

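RNA-seq libraries were made from oligo(dT)-selected mRNA with a strand-marking kit, and the submitters' processing notes name Trim Galore 0.6.6, HISAT2 2.1.0, SAMtools 1.6 and featureCounts 2.0.0, with hg38. The deposited unit is the raw read count per gene, in 1 table for each line, with an exon length in bp that the authors' counting added. Strand was not used in that counting, per the file headers, and fragments that overlapped more than 1 gene were dropped. All columns matched a sample (0 unmatched). For the ChIP lists the notes name Bowtie2 2.4.5 and MACS2 2.2.7.1, and the authors deposited per peak a fold enrichment (a ratio to local background), a -log10 p, a -log10 q and a summit position. How an input was used is not given in the sources used here.

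Counts were tested with edgeR 4.0.16 in R 4.3.3 (glmQLFit, TMM factors), in a fit of the 18 MDST8 libraries, a fit of the 6 LoVo libraries and a fit of all 24 for comparisons across lines. Genes entered at a geometric mean of reads per 1000000, taken with 1 added to each value and subtracted again, of at least 1 (the study's own filter is stated without the added 1), and a call needed a log2 fold change of more than 0.58 in size and p below 0.05 after adjustment over all genes tested. Changes of 2-fold and 4-fold simulated in 200 genes were recovered in 95% and 100% for TG1_1 against WT (13706 genes), 91% and 99% for LoVo (14270 genes) and 94% and 100% for WT against the LoVo control (14185 genes). Values of each library are given for genes that reached 10 CPM in a group, and for genes called in the mean of the clones or in LoVo that reached 1 CPM. The pathway genes named are the 3 largest called changes in each direction. The collagen genes, the marker and pathway lists and the tests were chosen with earlier results of these data known, so that their counts are descriptions. Alternatives were DESeq2 1.42.0, limma 3.58.1, other filters and scaling, a replicate block, each library left out and other peak limits, with the LoVo labels turned for the difference between lines added after the data were seen. Genes were placed with GENCODE coordinates on GRCh38, and promoters came from RefSeq (GRCh38.p14).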

Additional observations from a re-analysis of the deposited data

Results flagged for a closer look

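The change in LoVo, by label, differed from the mean change of the 5 MDST8 clones in a test of the difference itself (edgeR, fit of all 24 libraries) for 15 collagen genes. LoVo minus clones, on the log2 scale, the difference was 4.204 for COL1A1, 3.91 for COL5A2, 2.098 for COL11A2, 7.40 for COL4A5, 0.50 for COL6A1, 4.61 for COL9A3, 4.70 for COL12A1, 3.40 for COL18A1 and 3.64 for COL13A1. It was -3.45 for COL5A1, -3.89 for COL4A2, -1.60 for COL6A3, -2.92 for COL16A1 and -3.16 for COL17A1. COL6A2, with no count under the LoVo control label, differed as well (edgeR adjusted p = 3.69e-32). COL5A1, COL5A2, COL4A2, COL4A5 and COL6A2 passed the LoVo filter, and COL9A3 the MDST8 filter, through the groups where they were high. Their differences and the count are therefore descriptions. The libraries labelled TWIST1 shRNA held the LoVo counts of TWIST1, so that the direction and size of each difference, and the count, depend on the labels. With the LoVo labels turned, an alternative chosen after the data were seen, all 17 collagen genes tested in both lines differed, where 74.0% of all genes did, with COL27A1 at -0.50, COL7A1 at -1.05 and COL6A1 at -2.27.

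Among the clones, 4 genes were called higher in at least 1 clone and lower in another, and the test across the 5 clones called each of them, as it did 81.0% of all genes. The share of all genes called in both directions was not taken. The lower calls of COL9A3 in TG3_5, from 1 to 5 counts a library, and of COL6A3 in TG3_6 were lost when single libraries were left out. The highest and the lowest log2 fold change stood 1.95 apart for COL1A1 (TG1_1 0.98, TG3_6 -0.96, edgeR adjusted p = 6.67e-27). They stood 1.69 apart for COL6A3 (TG3_2 0.91, TG3_6 -0.78, edgeR adjusted p = 5.31e-08), 1.76 for COL8A1 (TG1_1 0.99, TG3_5 -0.77, edgeR adjusted p = 9.5e-29) and 6.16 for COL9A3 (TG3_6 5.01, TG3_5 -1.15, edgeR adjusted p = 6.56e-22). COL9A3 passed the filter on low counts through the clones where it was high, so that its values here are descriptions. TG3_2, TG3_5 and TG3_6, with the same guide label, had a clone wholly above WT and another wholly below it for each of the 4 genes.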

How the results depend on the processing

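None of the 116 called log2 fold changes of collagen genes changed direction under the alternatives tried, and 6 lost the call under at least 1, in 23 values in all. These were COL9A3, COL11A2 and COL17A1 in TG3_5, COL17A1 in TG1_1, COL6A3 in TG3_6 and COL6A3 in WT against the LoVo libraries labelled TWIST1 shRNA, each at low CPM. Without a filter on low counts 43 collagen genes were tested across lines. The count called rose to 32 for WT against the LoVo control (19 higher, 13 lower) and to 31 for WT against the other label (15 higher, 16 lower). The genes added included some at few counts. They also included COL4A3, COL4A4, COL8A2, COL9A2 and COL15A1, which the filter weighted to MDST8 had left out. COL4A4 had 324 to 389 counts a library under the TWIST1 label. Promoter peaks within 1000 bp numbered 18 in MDST8 and 11 in LoVo, at a p of at most 0.001 they numbered 8 and 5, and at a q of at most 0.05 there were 0 and 0. Leaving out each library in turn gave 13 to 14 calls in TG1_1, 7 to 8 in TG2_2, 9 to 11 in TG3_2, 8 to 9 in TG3_5, 8 to 10 in TG3_6, 7 to 8 in the mean of the clones, 20 to 21 among clones, 20 to 21 in LoVo, 20 to 21 for WT against the LoVo control and 19 to 21 against the other label. Replicate letters showed no pairing, with correlations of deviations from -0.0998 to 0.108 for the same letter (15 pairs) and from -0.108 to 0.0961 for different letters (30 pairs). The fit with the replicate block called 14 collagen genes in TG1_1, 7 in TG2_2, 9 in TG3_2, TG3_5 and TG3_6, and 7 in the mean of the clones, and the call of COL11A2 in TG3_5 was the only one of the 116 that it ended. For LoVo no paired analysis was possible because its labels share no replicate number. Genes at 1 to 3 CPM rest on few counts a library, and each clone is 1 line.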

Other observations

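COL18A1, COL6A1 and COL6A2 lie within 1 stretch of chromosome 21, chr21:45405165-46132848 on GRCh38, and were looked at together after their values had been seen. The stretch holds 24 genes, of which 7 were tested in MDST8 and 7 in LoVo. In the mean of the clones COL18A1 (0.95), COL6A1 (0.88) and LINC01694 (0.60) were called higher, ENSG00000286886 (-0.86) was called lower, and COL6A2 (0.55), SLC19A1 (-0.43) and ENSG00000288885 (-0.52) were not called. In the LoVo libraries labelled TWIST1 shRNA COL18A1 (4.38), COL6A1 (1.40), COL6A2, LINC01694 (7.32) and PCBP3 (1.77) were called higher, whereas SLC19A1 (0.42) and ENSG00000288885 (-0.25) were not called. These are log2 fold changes from edgeR, and no test of the stretch as a whole was made.

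Counts of all 44 collagen genes together came to between 5111 and 5313 per 1000000 counts in the WT libraries, and each clone library lay above them, from 6107 in TG3_6 to 8920.0 in TG1_1. In LoVo the sum was 418 to 464 under the control label and 1276 to 1445 under the TWIST1 label. COL6A1 and COL6A2 were the collagens with the most counts per length in WT MDST8. Both exceeded WT in every clone library, and their rise is part of the sum in each clone. From WT to TG3_6 the mean of COL6A1 went from 874.7 to 1465 CPM and that of COL6A2 from 1763.5 to 2470.9, while COL1A1, COL5A1 and COL4A2 lay below WT. A higher sum is thus not a rise of the collagen genes in general.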
